A study of Homo sapiens with 9 samples.

Results

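The genes described here are 7 regulators of alternative splicing, MBNL1, MBNL2, QKI, CELF1, CELF2, RBFOX2 and PTBP1. Every probe set that the probe annotation assigns to one of these symbols alone was taken, which gave 25 of the 22215 probe sets tested and 7 of 11963 genes. A further 5 probe sets are listed under both MIR4745 and PTBP1 and are described apart. The genes were chosen with the 3 group comparisons known, so the values in those comparisons are given as a description and nothing is read from how many were called.

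Transcript levels were measured on 9 Affymetrix arrays in U251, an established human glioma line that the labels name U251MG. In 3 cultures Oligofectamine, a lipid transfection reagent, carried an siRNA that targets the transcription factor WT1. Another 3 cultures received a scrambled, non-targeting siRNA with Oligofectamine, and 3 received Oligofectamine alone and are called reagent cultures. Both siRNAs were used at 100 nM, so all 9 cultures share the reagent and differ in the siRNA. The replicate numbers in the titles, 1 to 3 in each group, are called culture numbers, and each comparison was made within a number. When the cells were harvested and what a number stands for is not given here.

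Alternative splicing joins different exons of one gene into different mRNAs, and the proteins described here bind short motifs in pre-mRNA and help to decide which exons are kept. MBNL1 and MBNL2 are muscleblind proteins, which bind YGCY motifs through zinc fingers and are trapped by expanded CUG repeats in myotonic dystrophy. CELF1 and CELF2 bind GU-rich RNA and often act against the muscleblind proteins on shared exons. QKI is a KH-domain protein of glia whose isoforms differ at their 3′ ends, RBFOX2 binds GCAUG, and PTBP1 binds pyrimidine tracts and holds back neural exons. The arrays measure the amount of transcript at each probe set and not splicing itself.

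The siRNA target came first as a check of the labels. WT1 probe set 206067_s_at had log2 levels of 4.76, 5.09 and 4.82 with the WT1 siRNA, against 5.59, 5.89 and 5.41 with scrambled siRNA and 6.05, 6.58 and 5.89 with reagent. It was lower in all 3 cultures with the WT1 siRNA, its level being 60.0% of that with scrambled siRNA and 41.0% of that with reagent. It was also lower with scrambled siRNA than with reagent (log2 difference −0.55 ± 0.0811, SE), a call lost without any one scrambled array or without replicate 1 or 2 of the reagent group (limma, adjusted p 0.0607 to 0.13). Without the 3 arrays of number 2, WT1 206067_s_at was called in none of the comparisons (0.0762 to 0.305). The same held when the culture number was left out of the model (adjusted p 0.394 or more). Its mean over the 9 arrays was 5.56, under the level of 6 used here for bright probe sets. That level itself lies below the array medians, which were 6.45 to 6.53. The other WT1 probe set, 216953_s_at, lay at 4.83 to 5.40 on all arrays. It was not called, which here means a limma p adjusted over all probe sets that is not under 0.05, with differences of −0.18 for WT1 siRNA minus scrambled siRNA (adjusted p = 0.42) and −0.15 for WT1 siRNA minus reagent (0.516). Of the listed astroglial markers, 9 of 10 had a mean of 6 or more, VIM at 13.66 and CD44 at 13.09 among them, with GFAP between 5.36 and 9.25 across arrays. Of the other lists, 5 of 7 neuron, 0 of 6 oligodendrocyte, 2 of 7 immune, 1 of 4 endothelial and 3 of 5 epithelial markers reached 6. Because 6 is under the array medians, reaching it does not by itself show that a marker is well expressed. Culture numbers differed in the beta-actin control: the 3′ minus the 5′ probe set gave 0.05 to 0.09 in number 1, 0.55 to 0.68 in number 2 and 0.26 to 0.50 in number 3. Within each number all 3 groups were present, and over all probe sets 71.4% of the sum of squares lay between numbers and 15.6% between groups.

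Promoter sequence was available for 5 of the 7 genes, at 22 start sites (RefSeq, GRCh38.p14). The stretch of 250 bases before a start was searched on both strands for GCGGGGGCG, letters bound by WT1 and EGR proteins, and for the GC box GGGGCGGGG, and the 2 sets of letters can overlap. The first stood at 0 of the 22 starts, against 4.72% of 35116 windows of this length, and the second at 2 starts, against 15.1%. The MBNL1 and MBNL2 stretches with the highest GC content of each gene are shown because these relatives lay on opposite sides between the siRNA groups. The PTBP1 stretch is shown because it holds a GC box, in capitals, which reads as the reverse complement. MBNL1 lies at chr3:152268679-152268928 on the plus strand, with a GC content of 70.8%. MBNL2 lies at chr13:97222083-97222332 on the plus strand, with 50.0%. PTBP1 lies at chr19:797202-797451 on the plus strand, with 69.2%. A match is a description of the letters, and its absence says only that they are not in this window.
MBNL1: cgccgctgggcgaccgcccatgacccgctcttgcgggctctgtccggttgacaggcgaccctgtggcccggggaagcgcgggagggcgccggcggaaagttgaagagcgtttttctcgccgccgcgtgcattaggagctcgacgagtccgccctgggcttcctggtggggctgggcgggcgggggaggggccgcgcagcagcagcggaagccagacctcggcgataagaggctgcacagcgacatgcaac
MBNL2: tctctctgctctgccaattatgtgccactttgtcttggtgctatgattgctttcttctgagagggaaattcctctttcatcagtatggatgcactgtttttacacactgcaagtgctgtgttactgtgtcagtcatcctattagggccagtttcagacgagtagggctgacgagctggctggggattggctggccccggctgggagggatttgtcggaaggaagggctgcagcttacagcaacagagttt
PTBP1: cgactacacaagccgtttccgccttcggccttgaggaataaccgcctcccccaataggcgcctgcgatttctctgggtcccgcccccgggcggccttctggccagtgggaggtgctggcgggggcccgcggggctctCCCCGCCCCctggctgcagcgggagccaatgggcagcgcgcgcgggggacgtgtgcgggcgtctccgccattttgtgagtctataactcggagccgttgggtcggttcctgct

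MBNL1 encodes the muscleblind protein that favours adult exon choices in many tissues. At its bright probe sets, the MBNL1 transcript was lowest with scrambled siRNA and close between WT1 siRNA and reagent. Probe set 201151_s_at had log2 levels of 9.23, 9.52 and 9.36 with the WT1 siRNA, against 8.32, 8.57 and 8.84 with scrambled siRNA and 9.48, 9.63 and 9.52 with reagent. The 3 scrambled arrays were the 3 lowest, and they did not overlap either other group. WT1 siRNA minus scrambled siRNA was 0.79 ± 0.0942 on the log2 scale (SE, n = 3 per group), a level 1.73-fold as high. Scrambled siRNA minus reagent was −0.97 ± 0.0942, which put the scrambled level at 51.1% of the reagent level. WT1 siRNA minus reagent was −0.17 ± 0.0942, and the groups overlapped. Arrays of pooled cells cannot tell fewer expressing cells from less RNA per cell.

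The other bright MBNL1 probe sets gave the same order of groups. Probe set 201152_s_at had 10.08, 10.40 and 10.21 with the WT1 siRNA, against 9.51, 9.57 and 9.63 with scrambled siRNA and 10.27, 10.51 and 10.18 with reagent. Probe set 201153_s_at had 10.09, 10.41 and 10.21 with the WT1 siRNA, against 9.37, 9.61 and 9.77 with scrambled siRNA and 10.26, 10.56 and 10.38 with reagent. In both, each scrambled array lay below each array of the other groups. WT1 siRNA minus scrambled siRNA was 0.66 ± 0.0793 for 201152_s_at and 0.66 ± 0.0779 for 201153_s_at, and scrambled siRNA minus reagent was −0.75 ± 0.0793 and −0.82 ± 0.0779. The annotation gives these probe sets 1 target sequence, so they are not separate measurements of the gene.

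Within single culture numbers the bright MBNL1 probe sets kept their sign in both comparisons with scrambled siRNA. For 201151_s_at, WT1 siRNA minus scrambled siRNA was 0.91, 0.95 and 0.52 in numbers 1, 2 and 3, and scrambled siRNA minus reagent was −1.16, −1.06 and −0.68. Among the 22215 probe sets, 201151_s_at had the 10th highest difference between WT1 siRNA and scrambled siRNA. It had the 5th lowest difference between scrambled siRNA and reagent. MBNL1 was chosen with both comparisons known, so nothing is read from these ranks. The scrambled arrays enter both comparisons, so the opposite signs are not separate observations. For the bright MBNL1 probe sets, 86.5% to 89.6% of the sum of squares over the 9 arrays lay between groups. Between culture numbers lay 5.87% to 10.1%. The genes were chosen with the group comparisons known, so nothing is read from this split.

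The last MBNL1 probe set, 215663_at, was dim on all arrays, at 3.63 to 3.97, between the 0.572 and 4.11 percentiles of its array. Its differences were 0.02, 0.05 and 0.02 on the log2 scale for WT1 siRNA minus scrambled siRNA, WT1 siRNA minus reagent and scrambled siRNA minus reagent. The probe sequences were not used here, so which transcripts 215663_at reads is not known.

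**Figure D1:**
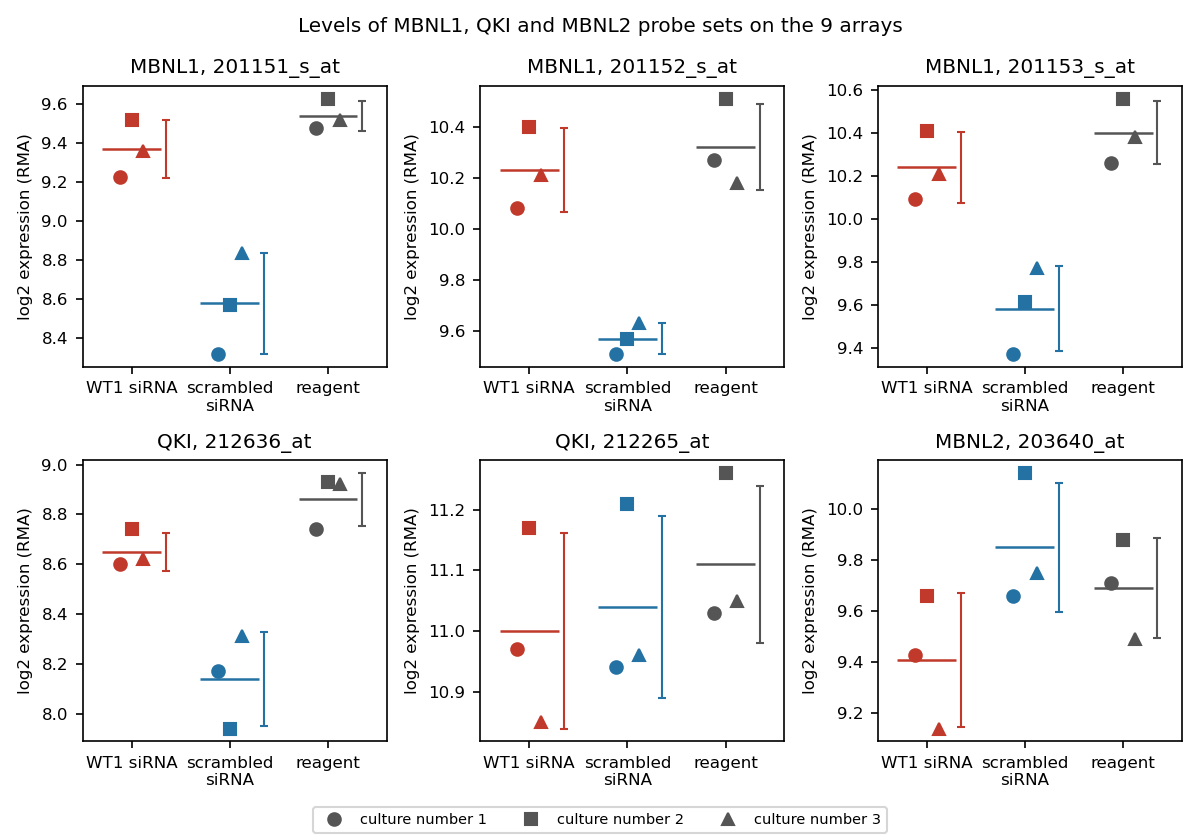
Each panel plots the RMA log2 level of 1 probe set (vertical axis) in the 3 cultures of each group, with WT1 siRNA left, scrambled siRNA in the middle and reagent right. Symbols give the culture number, horizontal lines the group mean and error bars ± 1 SD (n = 3). The scrambled arrays of the MBNL1 probe sets and of QKI 212636_at lie below all others, while QKI 212265_at overlaps between groups and MBNL2 203640_at is lowest on average with the WT1 siRNA (9.41, against 9.85 with scrambled siRNA and 9.69 with reagent).

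MBNL2, the muscleblind paralogue prominent in brain, differed the other way. Probe set 203640_at had log2 levels of 9.43, 9.66 and 9.14 with the WT1 siRNA, against 9.66, 10.14 and 9.75 with scrambled siRNA and 9.71, 9.88 and 9.49 with reagent. Each culture with the WT1 siRNA lay below the scrambled culture of its own number, by 0.23, 0.47 and 0.62 in numbers 1, 2 and 3, although the groups overlapped. WT1 siRNA minus scrambled siRNA was −0.44 ± 0.0804 (SE, n = 3 per group), which put the WT1 siRNA level at 73.8% of the scrambled level. WT1 siRNA minus reagent was −0.28 ± 0.0804 and scrambled siRNA minus reagent 0.16 ± 0.0804. The other MBNL2 probe sets had differences of −0.35 (205017_s_at) and −0.36 (205018_s_at) for WT1 siRNA minus scrambled siRNA, and neither was called. All 3 probe sets were lower with the WT1 siRNA than with scrambled siRNA in each of the 3 culture numbers. The 203640_at call was lost when replicate 2 or 3 of the WT1 siRNA group or of the scrambled group was left out (limma, adjusted p 0.0613 to 0.151).

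QKI, known for its part in myelination and in glial RNA processing, had 6 probe sets, of which 1 differed between groups. Probe set 212636_at had log2 levels of 8.60, 8.74 and 8.62 with the WT1 siRNA, against 8.17, 7.94 and 8.31 with scrambled siRNA and 8.74, 8.93 and 8.92 with reagent. Again the scrambled arrays were the 3 lowest and overlapped neither group. WT1 siRNA minus scrambled siRNA was 0.52 ± 0.0938 (SE, n = 3 per group), 1.43-fold, and scrambled siRNA minus reagent was −0.72 ± 0.0938, 60.6% of the reagent level. WT1 siRNA minus reagent was −0.21 ± 0.0938. Groups accounted for 88.8% of its sum of squares and culture numbers for 2.27%, again in a gene chosen with the group comparisons known.

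The other QKI probe sets had smaller differences between groups. The brightest, 212265_at, had 10.97, 11.17 and 10.85 with the WT1 siRNA, against 10.94, 11.21 and 10.96 with scrambled siRNA and 11.03, 11.26 and 11.05 with reagent, so that all groups overlapped. For the 5 other QKI probe sets, WT1 siRNA minus scrambled siRNA ran from −0.04 to 0.18 and scrambled siRNA minus reagent from −0.27 to −0.05, and none was called. One of them, 214541_s_at, was dim, between the 14.6 and 23.2 percentiles of its array. In the fit on differences between probe sets, scrambled siRNA minus reagent was 0.64 higher in 212265_at than in 212636_at. It was 0.67 lower in 212636_at than in 214541_s_at and 0.60 lower than in 214543_x_at, and these 3 QKI pairs were called. None of the 3 was called without replicate 2 of the WT1 siRNA group, any one scrambled array, or replicate 2 or 3 of the reagent group, and without replicate 1 of the reagent group only the pair with 214541_s_at was. The pairs of 212636_at with 212262_at and with 212263_at differed by 0.45 and 0.54 and were not called (limma, adjusted p = 0.236 and 0.0626). For WT1 siRNA minus scrambled siRNA, 0 of the 15 QKI pairs were called, and the 5 pairs with 212636_at had adjusted p of 0.0523 to 0.306.

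No CELF1 or CELF2 probe set was called in any group comparison. CELF2 had 3 probe sets, of which 202156_s_at and 202158_s_at share a target sequence in the annotation. Differences over the 3 were of one sign in each comparison with scrambled siRNA. They were −0.26 to −0.21 for WT1 siRNA minus scrambled siRNA and 0.30 to 0.42 for scrambled siRNA minus reagent. In the first comparison each CELF2 probe set was lower in 2 culture numbers and higher in 1. The scrambled arrays enter both comparisons. The brightest, 202157_s_at, had log2 levels of 7.40, 7.46 and 7.50 with the WT1 siRNA, against 7.65, 7.89 and 7.46 with scrambled siRNA and 7.32, 7.55 and 7.24 with reagent. The scrambled arrays were higher than the reagent arrays of the same number in 3 of 3 numbers, with overlap between the groups, and the adjusted p of scrambled siRNA minus reagent was 0.16 to 0.317 over the 3 CELF2 probe sets (limma). CELF1 had 4 probe sets with differences from −0.16 to 0.05 for WT1 siRNA minus scrambled siRNA, −0.12 to 0.06 for WT1 siRNA minus reagent and −0.01 to 0.04 for scrambled siRNA minus reagent.

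RBFOX2, a regulator of exons in muscle, brain and epithelial cells, had 4 probe sets and 0 calls in the group comparisons. Its differences were 0.08 to 0.20 for WT1 siRNA minus scrambled siRNA, −0.04 to 0.24 for WT1 siRNA minus reagent and −0.12 to 0.09 for scrambled siRNA minus reagent. Probe set 212104_s_at had 9.52, 9.55 and 9.33 with the WT1 siRNA, against 9.54, 9.38 and 8.89 with scrambled siRNA and 9.36, 9.38 and 8.93 with reagent. These groups overlapped. PTBP1 was nearly level: 211270_x_at had 11.01, 11.23 and 11.19 with the WT1 siRNA, against 11.20, 11.26 and 11.21 with scrambled siRNA and 11.09, 11.30 and 11.28 with reagent. Its differences were −0.08, −0.08 and 0.00, each with an SE of 0.0618. The 5 probe sets listed with both MIR4745 and PTBP1 had differences from −0.10 to 0.06 over the 3 comparisons. Probe sets ending in _x_at hold probes that can match other sequences as well.

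**Figure D2:**
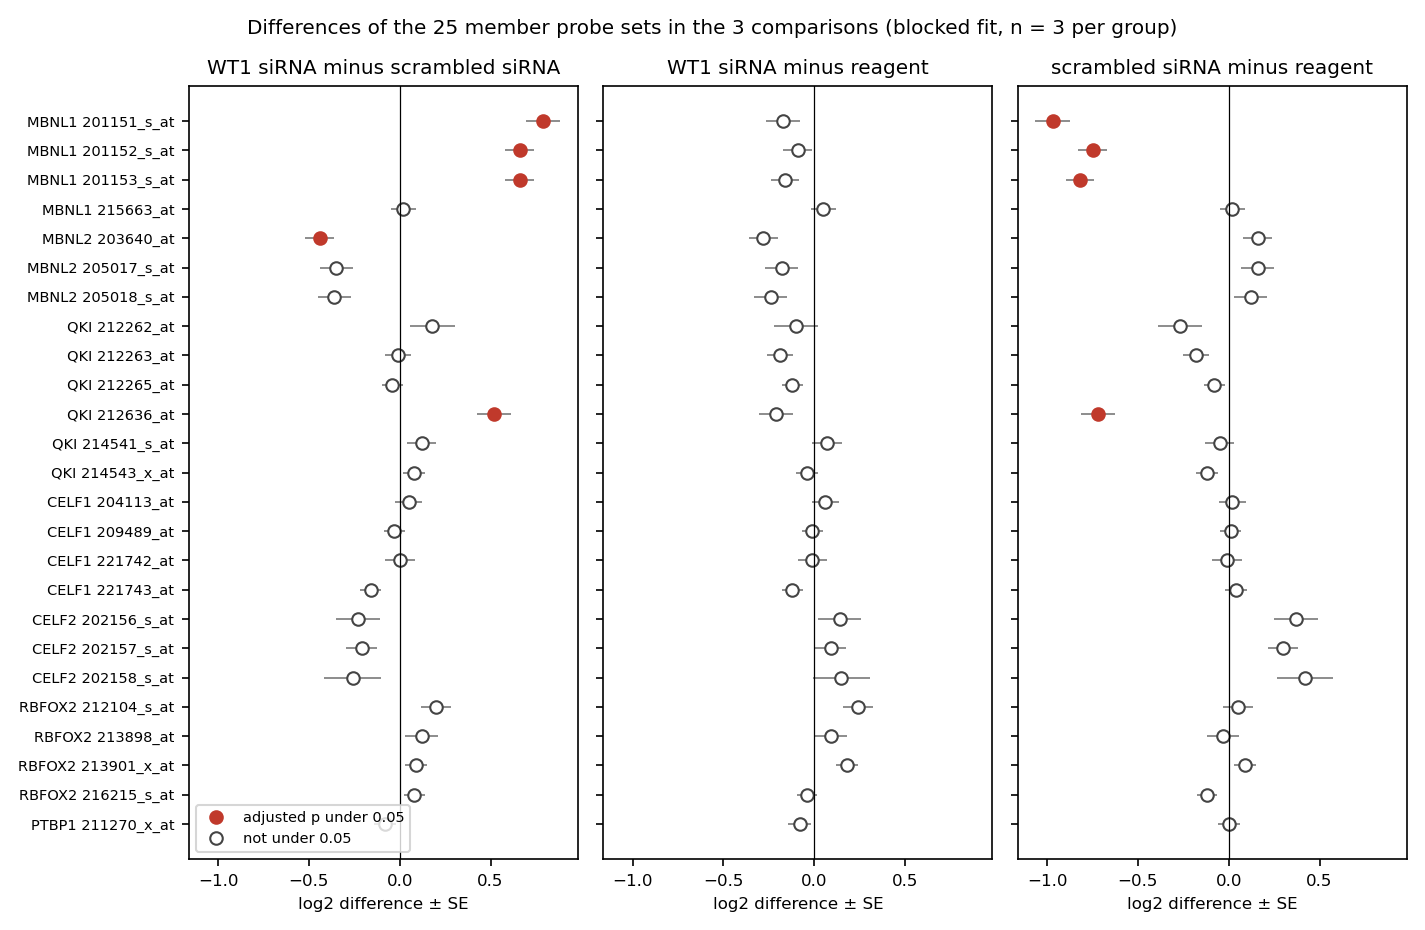
The 3 panels show WT1 siRNA minus scrambled siRNA, WT1 siRNA minus reagent and scrambled siRNA minus reagent for the 25 probe sets (rows), as log2 difference ± SE on the horizontal axis (n = 3 per group). Filled symbols were called at an adjusted p under 0.05 in the limma fit. The filled symbols are 3 MBNL1 probe sets, MBNL2 203640_at and QKI 212636_at at left, the same MBNL1 and QKI probe sets at right, and none in the middle.

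A probe set was called when its limma p, adjusted after Benjamini and Hochberg over all 22215 probe sets, was under 0.05. Of the 25 probe sets, 4 were higher and 1 lower for WT1 siRNA minus scrambled siRNA, beside 3.27% of all probe sets called (1.33% higher and 1.94% lower). For WT1 siRNA minus reagent, 0 were called by limma, beside 1.25% of all probe sets (0.41% higher and 0.837% lower), and 5 had an unadjusted p under 0.05, beside 15.1% of all probe sets. For scrambled siRNA minus reagent, 0 were higher and 4 lower, beside 1.09% called (0.554% higher and 0.536% lower). The adjusted p of the called MBNL1 probe sets was 0.00445 to 0.00447 for WT1 siRNA minus scrambled siRNA, and 0.00323 to 0.00454 for scrambled siRNA minus reagent. For QKI 212636_at it was 0.0221 and 0.0106 in these comparisons, and for MBNL2 203640_at 0.0223 in the first. The groups did not overlap in 4 probe sets for WT1 siRNA minus scrambled siRNA, all higher, where 3.31% of all probe sets were higher on every array. They did not overlap in 4 for scrambled siRNA minus reagent, all lower, beside 2.62%. The median difference over the 25 was 0.02, −0.04 and 0.00, against 0.00, 0.01 and 0.01 over all probe sets. All of these calls were lost when the culture number was left out of the model (adjusted p 0.237 to 1), and all were lost without the 3 arrays of number 2 (0.113 to 0.273). Without the arrays of number 1 the QKI call against scrambled siRNA was lost (0.0624), and without those of number 3 the MBNL2 call (0.117). Without replicate 2 of the reagent group alone, scrambled siRNA minus reagent was no longer called for MBNL1 201152_s_at (0.0579) or QKI 212636_at (0.111). Without replicate 1 or 2 of the WT1 siRNA group or of the scrambled group, WT1 siRNA minus scrambled siRNA was no longer called for QKI 212636_at (0.0511 to 0.11).

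The 25 probe sets form 39 pairs on 1 gene each, and the change in one was set against the change in the other in a fit over all 11661 such pairs on the chip. These pairs rest on the comparisons that the choice of genes used, so their counts are given as a description. For WT1 siRNA minus scrambled siRNA 3 of the 39 were called, beside 0.472% of all pairs, and each was a bright MBNL1 probe set against 215663_at. That probe set lies at the low end of every array, where a change may not be seen, so these calls add nothing to the MBNL1 differences given above. None of the 3 was called without replicate 2 of the WT1 siRNA group or replicate 1 or 2 of the scrambled group. For WT1 siRNA minus reagent 0 were called by limma, beside 0.103% of all pairs, and 6 had an unadjusted p under 0.05, beside 11.1% of all pairs. For scrambled siRNA minus reagent 6 were called, beside 0.549%, of which 3 were MBNL1 pairs with 215663_at and 3 the QKI pairs with 212636_at. Of these 6, the MBNL1 pairs and the QKI pair with 214541_s_at hold a dim probe set. Without replicate 2 of the reagent group 1 of the 39 was called, without replicate 2 of the scrambled group 2, and without the 3 arrays of number 2 or without the number in the model 0.

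Probe sets were also compared between culture numbers. The genes were chosen with earlier results of these data known, so the counts in these comparisons are given as a description. The comparison of 2 probe sets of a gene between numbers was added after these values had been seen, so its differences are given as a description. In number 1 against numbers 2 and 3 together, 16 of the 25 probe sets were called, 6 higher and 10 lower, beside 41.4% of all probe sets (19.6% higher and 21.8% lower). They covered 6 of the 7 genes, all but PTBP1. Among probe sets with a mean of 6 or more, 15 of 21 were called, beside 7080 of 12775 on the chip. The calls over all 25 include the dim MBNL1 215663_at, at 0.17. That call was lost without any one WT1 siRNA or reagent array, or without replicate 2 of the scrambled group (limma, adjusted p 0.0592 to 0.222). MBNL2 205017_s_at had 7.64, 7.84 and 7.98 in the number 1 cultures with WT1 siRNA, scrambled siRNA and reagent, against 6.29 to 6.92 in numbers 2 and 3. The number 1 arrays were the 3 highest, with a difference of 1.22 ± 0.0779 (SE; limma, adjusted p = 8.62e-06). MBNL2 205018_s_at was higher by 0.74 ± 0.0781 (adjusted p = 9.02e-05), whereas 203640_at differed by −0.08 ± 0.0696 (adjusted p = 0.409). The difference in 203640_at minus that in 205017_s_at was −1.30 ± 0.0703.

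QKI probe sets also differed in size of change by number. QKI 212262_at had 8.75, 8.47 and 9.05 in the number 1 cultures with WT1 siRNA, scrambled siRNA and reagent, against 9.31 to 10.21 in numbers 2 and 3, a difference of −1.08 ± 0.106 (limma, adjusted p = 6.29e-05). QKI 212263_at was lower by the same measure, at −0.44 ± 0.0628 (adjusted p = 0.000505). QKI 212265_at and 212636_at differed by −0.10 ± 0.0506 and −0.07 ± 0.0813 and were not called (adjusted p = 0.128 and 0.492). The sum of squares of 212262_at was thus split the other way from that of 212636_at, with 3.70% between groups and 90.8% between numbers.

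In CELF1 the probe sets took opposite directions by number. CELF1 204113_at had 7.44 to 7.57 in number 1, against 6.63 to 7.30 in numbers 2 and 3, and was higher by 0.50 ± 0.0640 (limma, adjusted p = 0.000288). CELF1 209489_at, 221742_at and 221743_at were lower in number 1, by differences of −0.23, −0.44 and −0.23 (adjusted p 0.00109 to 0.00514). The difference in 204113_at minus that in each of the others was 0.73 to 0.93. In RBFOX2, 213901_x_at was higher in number 1 by 0.49 ± 0.0506 (adjusted p = 8.57e-05) and 216215_s_at lower, at −0.29 ± 0.0493 (adjusted p = 0.00135), and the first minus the second was 0.78 ± 0.0697. CELF2 202156_s_at and 202158_s_at were lower in number 1, at −0.43 ± 0.103 and −0.63 ± 0.135 (limma, adjusted p = 0.00834 and 0.00489). CELF2 202157_s_at was at −0.06 ± 0.0728 (adjusted p = 0.561). The annotation gives CELF2 202156_s_at and 202158_s_at a shared target sequence, and likewise CELF1 221742_at and 221743_at. Such probe sets are not separate measurements of the gene. The CELF2 202156_s_at call was lost without replicate 1 of the reagent group (adjusted p = 0.0674).

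The bright MBNL1 probe sets had differences from −0.25 to −0.13 between number 1 and the others, of which 201151_s_at (adjusted p = 0.0474) and 201153_s_at (0.0156) were called. Without replicate 1 of the scrambled group neither was called (0.262 and 0.0877), and 201151_s_at was also not called without replicate 1 or 2 of the WT1 siRNA group, 3 of the scrambled group or 2 of the reagent group (0.061 to 0.106). PTBP1 211270_x_at differed by −0.14 ± 0.0535 (limma, adjusted p = 0.0587). Of the probe sets listed with MIR4745 and PTBP1, 212016_s_at was higher in number 1 by 0.54 ± 0.0608 (adjusted p = 0.000128), and the 4 others lay between −0.25 and −0.14. Over the member pairs, 25 of 39 had an adjusted p under 0.05 between number 1 and the others (64.1%), beside 39.9% of all pairs. Among pairs of probe sets with a mean of 6 or more, it was 18 of 26, beside 2688 of 5349. Number 2 against number 3 gave 8 of 25 probe sets, 6 higher and 2 lower, beside 21.9% of all probe sets (11.2% higher and 10.7% lower), and 12 of 39 pairs, beside 15.7%. Single arrays moved these counts: without replicate 2 of the WT1 siRNA group 5 probe sets and 5 pairs were called, without replicate 2 of the scrambled group 3 and 6, without replicate 3 of the scrambled group 4 and 5, and without replicate 2 of the reagent group 5 and 5. Among probe sets with a mean of 6 or more, number 2 against number 3 gave 8 of 21, beside 4531 of 12775. The pairs of such probe sets gave 10 of 26, beside 1070 of 5349. CELF1 204113_at was again higher in number 2 than in number 3, by 0.51. QKI 212262_at was lower, at −0.55, a call lost without replicate 2 of the scrambled group (limma, adjusted p = 0.0687). The 3′ to 5′ difference of the beta-actin control also differed between numbers, as given above, and its part in these values was not tested.

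**Figure D3:**
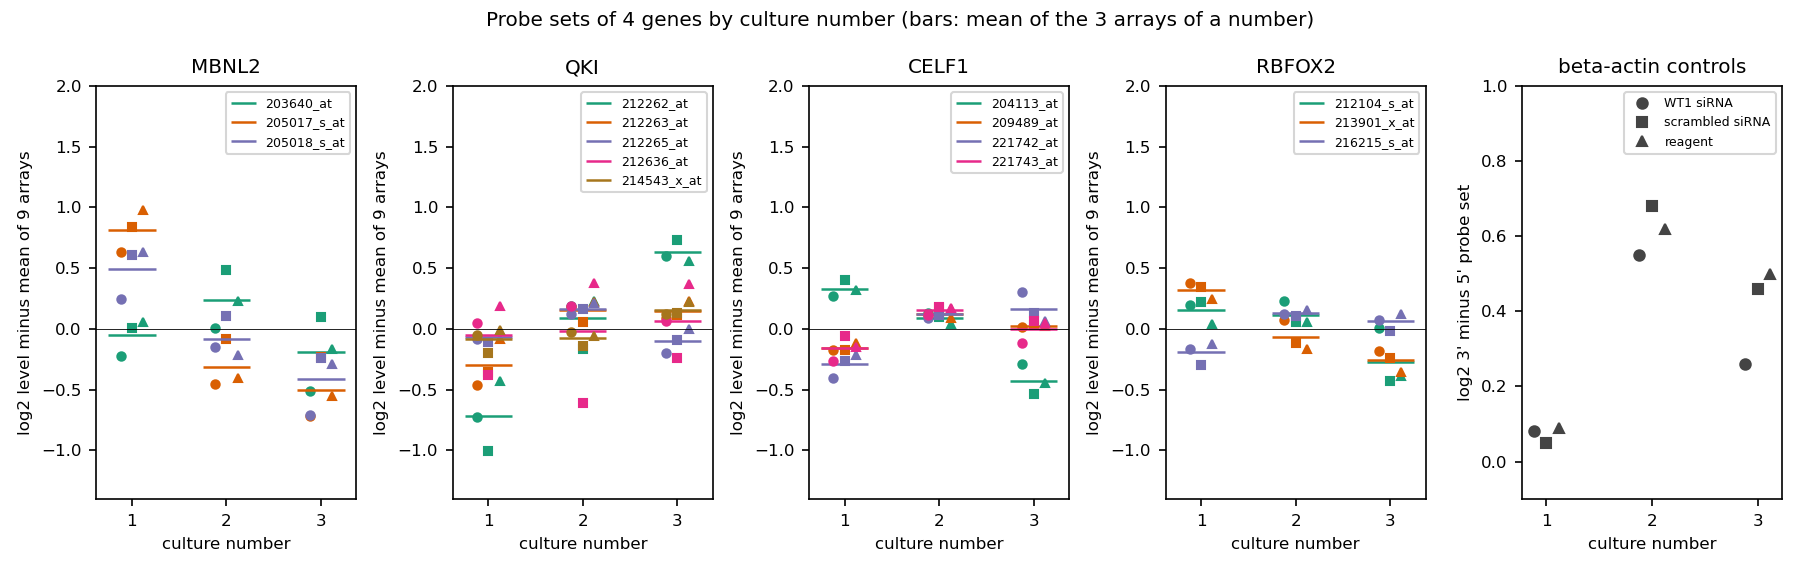
The first 4 panels plot probe sets of MBNL2, QKI, CELF1 and RBFOX2 by culture number, as the log2 level minus that probe set's mean over the 9 arrays; colours are probe sets, bars the mean of the 3 arrays of a number, and circles, squares and triangles WT1 siRNA, scrambled siRNA and reagent. The panel at right gives the log2 3′ minus 5′ difference of the beta-actin control. In number 1, MBNL2 205017_s_at stands high and QKI 212262_at low, while MBNL2 203640_at and QKI 212265_at stay near 0.

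Across the 9 arrays, levels of the bright MBNL1 probe sets went together (r = 0.97 to 0.99), as did MBNL2 205017_s_at and 205018_s_at (r = 0.95). MBNL2 203640_at and 205017_s_at had r = 0.15, QKI 212265_at and 212636_at r = 0.13, and RBFOX2 213901_x_at and 216215_s_at r = −0.81. These correlations are descriptions over arrays that share culture numbers and groups. Among 7672 genes with a mean of 6 or more, the genes most like MBNL1 201153_s_at over the 9 arrays were TMPO (r = 0.973) and RPS27L (0.966), and those most like MBNL2 203640_at were PRNP (0.968) and VPS26A (0.962). For QKI 212265_at they were ZFAND5 (0.987) and PHIP (0.976), and for CELF1 221743_at MACIR (0.993) and NOL9 (0.990). For CELF2 202157_s_at they were XPNPEP1 (0.934) and HPSE (0.920), for RBFOX2 216215_s_at DDX42 (0.988) and APC (0.977), and for PTBP1 211270_x_at FAM13B (0.979) and TRMT13 (0.959).

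Other splicing factors were taken from lists. Of 137 listed genes, 112 were measured: 28 other regulators, 13 SR proteins, 7 SR protein kinases, 27 hnRNPs and 37 core spliceosome proteins, each at its brightest probe set. For WT1 siRNA minus scrambled siRNA, 1 was higher and 3 were lower, beside 3.7% of all 11963 genes called (1.39% higher and 2.32% lower), and the list's median was −0.02, against 0.00 over all genes. For WT1 siRNA minus reagent, 0 were higher and 3 lower, beside 1.4% (0.376% higher and 1.02% lower), with a median of −0.04, against 0.01. For scrambled siRNA minus reagent, 0 of 112 were called by limma, beside 1.21% of all genes (0.644% higher and 0.568% lower), and 5 had an unadjusted p under 0.05, beside 13.1% of all genes.

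The transcript of RBM47, an RNA-binding protein with parts in RNA editing and splicing, was lower with the WT1 siRNA than in both other groups. It had log2 levels of 6.13, 6.59 and 6.38 with the WT1 siRNA, against 7.05, 7.13 and 6.73 with scrambled siRNA and 7.02, 7.36 and 6.70 with reagent. The WT1 siRNA arrays lay below all others, with differences of −0.61 ± 0.11 against scrambled siRNA and −0.66 ± 0.11 against reagent (limma, adjusted p = 0.0218 and 0.0263). CLK4, a kinase that phosphorylates SR proteins, had 7.11, 7.50 and 7.62 with the WT1 siRNA, against 7.48, 7.86 and 7.94 with scrambled siRNA and 7.37, 7.95 and 8.08 with reagent. It was lower with the WT1 siRNA in each culture number, with differences of −0.35 against scrambled siRNA and −0.39 against reagent (adjusted p = 0.0253 and 0.0279), although the groups overlapped.

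HNRNPL, which binds CA-rich RNA, was higher with the WT1 siRNA than with scrambled siRNA at 35201_at (0.29 ± 0.0612, limma, adjusted p = 0.0346), and its other probe set was at 0.22 (adjusted p = 0.185). SNRPA1, a protein of the U2 particle that recognises the branch point, was lower at 206055_s_at (−0.29 ± 0.0595, limma, adjusted p = 0.0337). Its other probe sets were at −0.30 (215722_s_at, called, 0.0382) and −0.25 (216977_x_at, 0.102). Against reagent, HNRNPL 35201_at was at 0.10 and SNRPA1 206055_s_at at −0.17, and neither was called (adjusted p = 0.483 and 0.209). Scrambled siRNA minus reagent was −0.19 and 0.12 for them, also not called (0.219 and 0.492). HNRNPA3 was lower with the WT1 siRNA than with reagent at 211932_at (−0.34 ± 0.0636, limma, adjusted p = 0.0374). Its other probe sets were at −0.20 and −0.15 and not called. Against scrambled siRNA, 211932_at was at −0.26 and not called (adjusted p = 0.0646). The SR proteins had 0 calls by limma in the 3 comparisons, with 3, 5 and 0 of 13 at an unadjusted p under 0.05 for WT1 siRNA minus scrambled siRNA, WT1 siRNA minus reagent and scrambled siRNA minus reagent, beside 17.7%, 15.9% and 13.1% of all genes. Their median differences were −0.03, −0.09 and −0.04, against 0.00, 0.01 and 0.01 over all genes. Single arrays decided the calls of these genes. RBM47 was no longer called against scrambled siRNA without replicate 2 of the WT1 siRNA group or any one scrambled array (adjusted p 0.0676 to 0.105). Against reagent it was no longer called without replicate 2 of the WT1 siRNA group, 2 or 3 of the scrambled group, or 1 or 2 of the reagent group (0.0508 to 0.177). At their brightest probe sets, the calls of CLK4, HNRNPL, SNRPA1 and HNRNPA3 were all lost without replicate 2 of the WT1 siRNA group (0.117 to 0.164). They were also lost without further single arrays (0.0509 to 0.197). When the culture number was left out of the model, 0 of the 112 were called in the comparisons of the WT1 siRNA with scrambled siRNA or reagent.

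**Figure D4:**
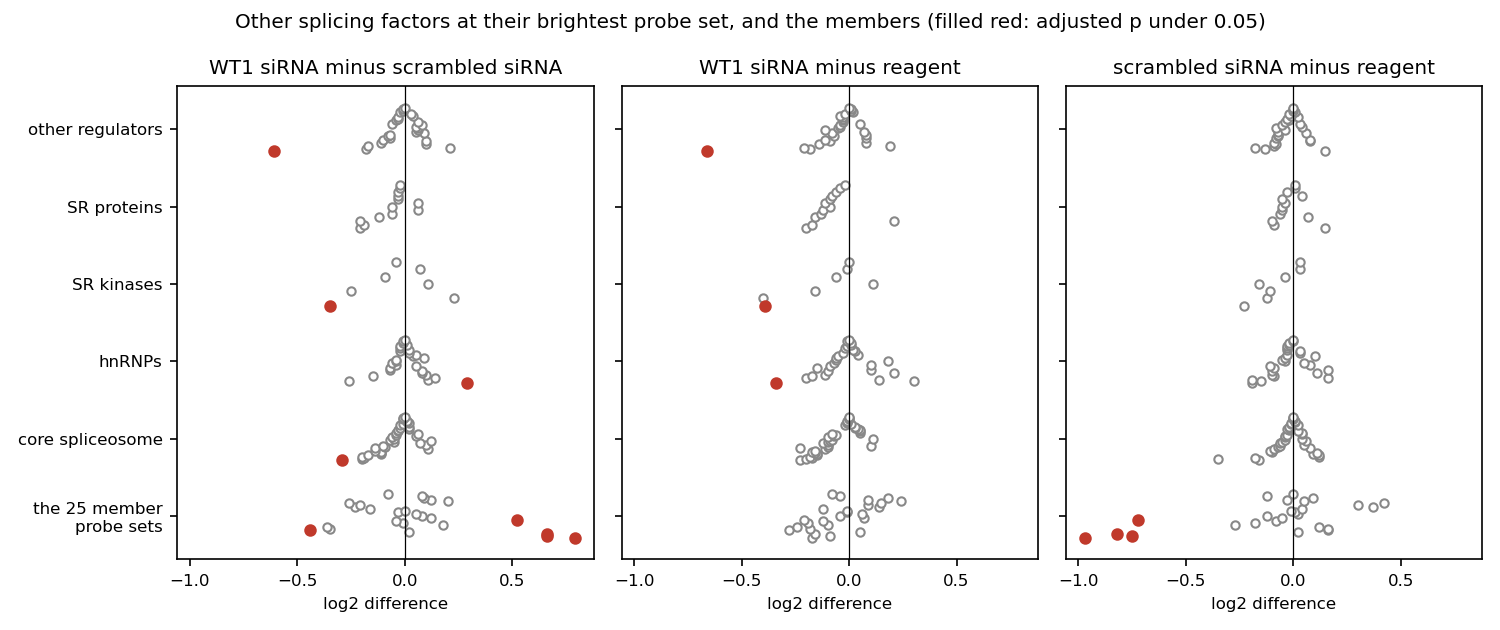
Each point is the log2 difference (horizontal axis) of 1 gene at its brightest probe set, grouped by list (rows), with the 25 probe sets of the 7 genes in the lowest row, for the 3 comparisons. Red points were called at an adjusted p under 0.05 in the limma fit. The points of the other splicing factors lie between −0.66 and 0.30. Those of the 7 genes reach 0.79 in the left panel and −0.97 in the right. The 7 genes were chosen with these comparisons known and are shown at all their probe sets, so nothing is read from their wider range.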

How the data were processed

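Transcript levels were measured on 9 arrays in 3 groups of 3 cultures, which the series design calls biological triplicates. The authors deposited log2 values, 1 for each probe set, made with RMA (robust multi-array average) per the submitters' processing notes. The software used and the definition of the chip are not stated here. Of 22277 probe sets 62 controls were left out, and 1043 of the rest had several gene symbols and 2108 none. Values were used as deposited. Linear models (limma 3.58.1, R 4.3.3) were fitted to all arrays with group and culture number as terms, two-sided, with p-values adjusted after Benjamini and Hochberg over all features of a fit. The number was kept as a block because arrays of one number deviated together from their group means. Each group's mean was subtracted, and only pairs of arrays from different groups were correlated over all probe sets. The 9 same-number pairs had correlations of 0.647 to 0.849, and the 18 pairs of different number −0.611 to −0.0311. Deviations within a group cancel out, so positive same-number values force negative ones among the other pairs. The contrast between these ranges is therefore partly built in. P-values measure the spread left within numbers, and the number of arrays limits the precision. Figures were drawn with matplotlib 3.10.9.

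All probe sets of the 7 genes are described. From each list of other splicing factors up to 4 called genes with the smallest p per comparison are named, and for each of the 7 genes, at its brightest probe set, the 2 most correlated genes. WT1 is given as the check of the labels. The genes, lists and tests were chosen with earlier results of these data known, and the pair test between culture numbers was added after those values had been seen. The procedure was tested on simulated data. Alternatives were no block, centred arrays, bright probe sets only, a variance trend, only the groups compared, and leaving out each array or number. For the differences between numbers, leaving out the arrays with WT1 siRNA took the place of the alternatives on the block, the groups compared and the numbers.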

Additional observations from a re-analysis of the deposited data

How the results depend on the processing

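With no replicate block, the pairing by number being left out, 4 probe sets were called for WT1 siRNA minus scrambled siRNA, 0 for WT1 siRNA minus reagent and 1 for scrambled siRNA minus reagent, against 726, 277 and 242 with it. Pairs of probe sets then gave 0 calls in the 3 comparisons (55, 12 and 64 with the block), and the splicing factor lists gave 0 against scrambled siRNA and 0 against reagent (4 and 3 with it). With only the groups compared in the fit, the probe set counts were 390, 3 and 535, the pairs 24 and 1 in the comparisons of the WT1 siRNA with scrambled siRNA and with reagent, and the lists 2, 0 and 1. A variance trend gave 552 probe sets for WT1 siRNA minus reagent, 470 for scrambled siRNA minus reagent and 9 list genes for WT1 siRNA minus scrambled siRNA. With bright probe sets only, 5349 pairs were tested, against 11661 over all probe sets, so the counts cannot be compared directly. The called pairs then numbered 5, 0 and 24 in the group comparisons. They numbered 2688 between number 1 and the others (4651 over all pairs) and 1070 between numbers 2 and 3 (1833). Without the arrays with WT1 siRNA, numbers 2 and 3 differed in 1032 of 11661 pairs. Centring each array moved the share of higher calls for WT1 siRNA minus reagent to 21.1%, against 32.9% as deposited.

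Leaving out an array or a number gave 2 to 706 probe sets for WT1 siRNA minus scrambled siRNA, 0 to 465 for WT1 siRNA minus reagent and 3 to 387 for scrambled siRNA minus reagent. It gave 0 to 52, 0 to 18 and 0 to 98 pairs, and 0 to 4, 0 to 3 and 0 to 1 list genes, in the same comparisons. Leaving out 1 array gave 6346 to 10104 probe sets and 3369 to 4924 pairs between number 1 and the others, and 2652 to 5449 probe sets and 841 to 2040 pairs between numbers 2 and 3.

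The bright MBNL1 and QKI 212636_at differences in both comparisons with scrambled siRNA, and that of MBNL2 203640_at for WT1 siRNA minus scrambled siRNA, kept their sign under all alternatives run. MBNL1 201151_s_at ranged from 0.72 to 0.93 for WT1 siRNA minus scrambled siRNA and from −1.11 to −0.87 for scrambled siRNA minus reagent, QKI 212636_at from 0.37 to 0.62 and from −0.80 to −0.58, and MBNL2 203640_at from −0.55 to −0.35 in the first. Under 17 alternatives, the 3 bright MBNL1 probe sets were called 15 times each in the first comparison, and QKI 212636_at and MBNL2 203640_at 9 times each; with only the groups compared in the fit their adjusted p was 0.0501 and 0.0535. The cause of these changes was not tested. The dim probe sets MBNL1 215663_at, QKI 214541_s_at and RBFOX2 213898_at, whose signal is low on every array, limit what can be read from them. CELF2 202156_s_at, with a mean of 5.95, also fell under the level of 6 used for bright probe sets.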
